A study of Mus musculus with 10 samples.

Results

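Dietary iron enters the body through the absorptive cells of the small intestine. The 6 genes described here encode proteins of that route (Cybrd1, Slc11a2, Fth1, Slc40a1 and Heph) and a receptor that takes up iron from the blood side (Tfrc). They were chosen as a named set for their known roles and taken from the table by gene symbol, with 1 probe set for each, and were 6 of the 22180 genes measured. The values are log2 intensities of 10 Affymetrix MoGene 2.0 ST arrays hybridised with amplified RNA of sorted mouse intestinal cells. The question of the comparison was how crypt cells that express Flattop, the product of Cfap126, depart from stem cells with high Lgr5.

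The 4 Flattop arrays held crypt cells of mice with the genotype FltpT2AiCre crossed with Gt(ROSA)26mTmG, on the strain background mixed C57BL/6J, CD1, 129/SvJ. The 6 Lgr5-high arrays held stem cells of C57BL/6J mice with the genotype Lgr5-EGFP-IRES-creERT2. All mice were 3 to 6 months old, and no treatment other than cell preparation and sorting is given in the labels. A Cre recombinase expressed with Flattop switches the ROSA26 membrane reporter for good, so that descendants of a Flattop-expressing cell can keep the colour. Neither the sorted colour nor the stretch of intestine sampled is stated in the labels. The effects of group, genotype and strain cannot be told apart in this design. The labels do not tie replicates to separate animals, and the p-values therefore reflect the spread between samples alone, which may be technical. The arrays hold bulk RNA, in which fewer cells of a type and less RNA per cell cannot be told apart.

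Iron in the gut lumen is reduced at the brush border by the ferric reductase duodenal cytochrome b (Cybrd1) and carried into the enterocyte by the divalent metal transporter DMT1 (Slc11a2). Inside the cell it is stored in ferritin, whose heavy chain (Fth1) oxidises it, or it leaves across the basolateral membrane through ferroportin (Slc40a1), aided by the copper oxidase hephaestin (Heph). The transferrin receptor (Tfrc) takes up iron from the blood side and is abundant in dividing crypt cells, whereas the absorptive proteins are known from villus enterocytes, above all those of the duodenum. Cells tune several of these messages through iron regulatory proteins that bind iron-responsive elements. Binding near the start of Fth1 and Slc40a1 messages blocks their translation, which an RNA measurement does not see, and binding near the end of the Tfrc message slows its decay. Hypoxia-inducible factors raise transcription of some of these genes.

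The promoters of Cybrd1 and Tfrc are shown because hypoxia-inducible factors are known to act on both genes, in mouse intestine for Cybrd1 and in human cells for the Tfrc counterpart. The sequences are from RefSeq, build GRCm38.p6, plus strand, 5′ to 3′, and run up to the first listed transcription start, with 3 bases after it for Tfrc to complete the last match. Capitals mark the core motif ACGTG or GCGTG of these factors, searched on both strands, so that it can also read CACGT or CACGC.
Cybrd1: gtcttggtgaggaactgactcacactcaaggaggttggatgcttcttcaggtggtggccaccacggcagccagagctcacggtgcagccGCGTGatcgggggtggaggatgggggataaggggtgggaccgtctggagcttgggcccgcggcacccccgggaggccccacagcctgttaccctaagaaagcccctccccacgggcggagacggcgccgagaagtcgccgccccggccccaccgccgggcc
Tfrc: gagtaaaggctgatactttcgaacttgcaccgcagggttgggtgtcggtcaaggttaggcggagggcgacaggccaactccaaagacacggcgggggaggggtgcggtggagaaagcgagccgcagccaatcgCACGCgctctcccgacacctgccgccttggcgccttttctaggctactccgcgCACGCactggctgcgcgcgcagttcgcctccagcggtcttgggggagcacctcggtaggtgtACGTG
The Cybrd1 stretch lies at chr2:71117804-71118053 and holds 1 match, 161 bases before the start. The Tfrc stretch lies at chr16:32608646-32608898 and holds 3 matches, which begin 117, 64 and 2 bases before the start. The motif was found in 43.8% of the 32851 promoter windows of 300 bases (250 before the start and 50 after), so a match is common and is a description only. Promoter windows were found for 3 of the 6 genes, the third being Fth1, and none for Slc11a2, Slc40a1 and Heph. The 2 windows of Fth1, not shown, hold 1 match, 50 bases before the start. A second Tfrc window, not shown, holds matches 228, 134 and 42 bases before its own start. The first of these is the last match shown above.

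None of the 6 genes passed limma's test between the groups at an adjusted p of 0.05 over all genes, where 0.915% of the genes tested passed. At an unadjusted p under 0.05, Slc11a2, Slc40a1 and Heph were higher in Flattop arrays, against 5.98% of all genes, and Tfrc was lower, against 3.8% of all genes. The 5 genes of uptake, storage and export had differences, Flattop minus Lgr5-high, between 0.28 and 1.12 on the log2 scale, and that of Tfrc was -0.96. The median over the 6 genes was 0.48, against -0.06 over all genes tested. The arrays of the groups overlapped in each of the 6, where they were apart in 2.98% of all genes.

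Array-wide measures bear on these values. Arrays of 1 group correlated with each other at a Pearson r of 0.854 to 0.941, pairs across the groups at 0.825 to 0.931, and no arrays were identical. Flattop replicate 3 and Lgr5-high replicate 2 had the lowest mean correlation with their own groups (0.875 and 0.863). Cfap126 itself was at 5.42 ± 0.74 (SD, n = 4) in the Flattop and 4.996 ± 0.349 (SD, n = 6) in the Lgr5-high group, a difference that did not pass (limma adjusted p = 0.678). The titles carry numbers that run from 1 to 8 on some arrays (Flattop replicates 1 and 2, Lgr5-high replicates 1 to 3) and from 38 to 46 on the others, and the labels do not say what they mark.

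Cybrd1, the luminal ferric reductase, read 5.89, 6.17, 5.15 and 5.49 in Flattop replicates 1 to 4. In Lgr5-high arrays it lay between 4.92 and 5.65, with a median of 5.15. Flattop replicates 1 and 2 were above every Lgr5-high array and replicates 3 and 4 lay within their range. The group means were 5.67 ± 0.45 (SD, n = 4) in the Flattop and 5.23 ± 0.31 (SD, n = 6) in the Lgr5-high group, a difference of 0.44 with a 95% confidence interval from -0.05 to 0.94 (limma adjusted p = 0.572). Within titles 1 to 8 the difference was 0.79 (limma adjusted p = 0.489) and within titles 38 to 46 it was 0.09 (limma adjusted p = 0.969). None of the 6 genes passed within either range, where 0.347% and 0.383% of all genes did.

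Slc11a2, which encodes DMT1, read 6.93, 6.81, 5.74 and 6.75 in Flattop replicates 1 to 4. In Lgr5-high arrays it lay between 5.79 and 6.31, with a median of 6.04. Flattop replicates 1, 2 and 4 were above every Lgr5-high array, while replicate 3 was below all of them. The means were 6.56 ± 0.55 (SD, n = 4) in the Flattop and 6.04 ± 0.17 (SD, n = 6) in the Lgr5-high group, and the difference of 0.52 (95% confidence interval 0.03 to 1.005) did not pass (limma adjusted p = 0.482). Without Flattop replicate 3 the difference was 0.79 and passed (limma adjusted p = 0.0275), which made Slc11a2 the only one of the 6 genes to pass in any of the 22 alternative settings. With the array least like its group removed from both groups, an alternative chosen after the data were seen, it was 0.79 with a limma adjusted p of 0.0529. Flattop replicate 3 also had the highest lymphocyte list mean (10.48, against 8.40 to 9.998 in the other Flattop arrays) and the lowest enterocyte list mean of the Flattop arrays (8.97, against 9.46 to 10.43). Their part in the Slc11a2 value was not tested.

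Fth1, the ferritin heavy chain, read 12.38, 12.25, 12.16 and 12.46 in Flattop replicates 1 to 4. In Lgr5-high arrays it lay between 11.91 and 12.29, with a median of 11.96. Its spread was small in both groups, and Flattop replicates 1 and 4 were above every Lgr5-high array. The means were 12.31 ± 0.13 (SD, n = 4) in the Flattop and 12.04 ± 0.17 (SD, n = 6) in the Lgr5-high group, a difference of 0.28 (95% confidence interval -0.00065 to 0.55, limma adjusted p = 0.512). The interval holds no change of 2-fold in either direction. Processed copies of ferritin genes occur in the mouse genome, so which copies the probes detect is uncertain, and the light chain Ftl1 is not analysed here.

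Slc40a1, the only known cellular iron exporter, read 5.71, 4.61, 4.86 and 5.15 in Flattop replicates 1 to 4. In Lgr5-high arrays it lay between 4.07 and 4.91, with a median of 4.602. Flattop replicates 1 and 4 were above every Lgr5-high array. The means were 5.08 ± 0.47 (SD, n = 4) in the Flattop and 4.56 ± 0.28 (SD, n = 6) in the Lgr5-high group, and the difference of 0.53 (95% confidence interval 0.04 to 1.02) did not pass (limma adjusted p = 0.475). The Lgr5-high mean lay under the median of all values in the table (4.70), and without detection calls the size of the difference is uncertain. Without Flattop replicate 1 it was 0.32 (limma adjusted p = 0.755), the highest p of its alternatives, which began at 0.369.

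Heph, whose product oxidises iron as it leaves the enterocyte, showed the largest difference among the 6 genes. It read 7.12, 6.82, 6.75 and 6.06 in Flattop replicates 1 to 4. In Lgr5-high arrays it lay between 4.85 and 6.16, with a median of 5.72. Flattop replicates 1 to 3 were above every Lgr5-high array and only replicate 4 overlapped with them. The means were 6.69 ± 0.45 (SD, n = 4) in the Flattop and 5.56 ± 0.51 (SD, n = 6) in the Lgr5-high group, a difference of 1.12 (SE 0.29, 95% confidence interval 0.49 to 1.76), or 2.18-fold, which did not pass over all genes (limma adjusted p = 0.145). The unadjusted p stayed under 0.05 whichever of the 10 arrays was left out, with differences of 0.98 to 1.33. The adjusted p ranged from 0.0973 to 0.741 over 22 alternatives, and none passed.

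Tfrc, the transferrin receptor, was the member with the opposite sign. It read 9.45, 9.78, 8.34 and 9.07 in Flattop replicates 1 to 4. In Lgr5-high arrays it lay between 9.39 and 10.64, with a median of 10.14. Flattop replicates 3 and 4 were below every Lgr5-high array and no Flattop array reached the Lgr5-high median. The means were 9.16 ± 0.62 (SD, n = 4) in the Flattop and 10.12 ± 0.48 (SD, n = 6) in the Lgr5-high group, a difference of -0.96 (SE 0.31, 95% confidence interval -1.65 to -0.27), or 0.513-fold, which did not pass (limma adjusted p = 0.302). The unadjusted p stayed under 0.05 whichever array was left out, with differences between -1.17 and -0.69. Over 22 alternatives the adjusted p ranged from 0.102 to 0.860.

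**Figure D1:**
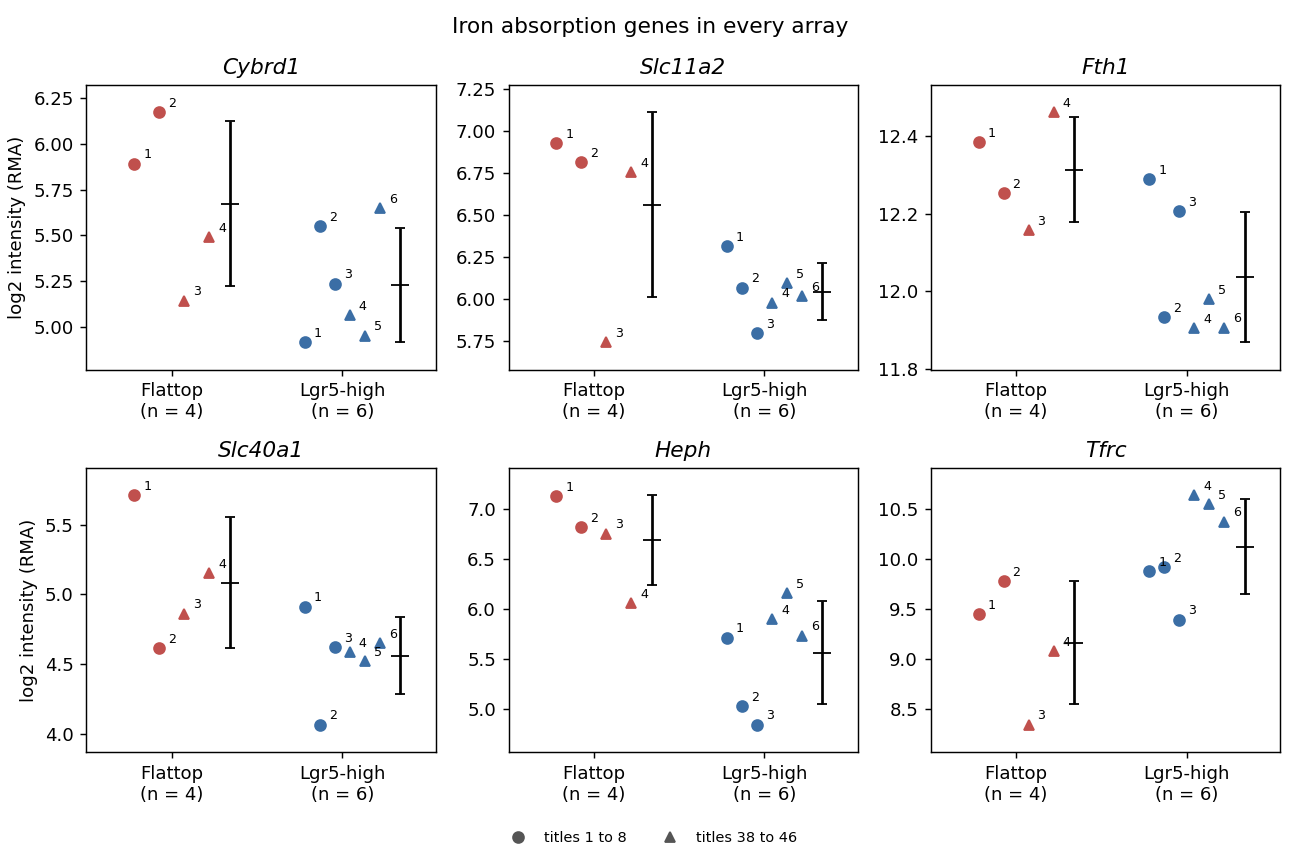
Log2 intensity (RMA) of each iron absorption gene in every array, Flattop (n = 4) left of Lgr5-high (n = 6), with the replicate number beside each point and circles or triangles for titles 1 to 8 or 38 to 46; black bars are mean ± SD, and each panel has its own vertical range. Heph has 3 of 4 Flattop arrays above every Lgr5-high array, Tfrc has 2 of 4 below every Lgr5-high array, and Slc11a2 has 3 above and replicate 3 below.

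Within the title ranges the differences of Heph and Tfrc had different sizes. For Heph, Flattop replicates 1 and 2 averaged 6.97 ± 0.22 (SD, n = 2) and Lgr5-high replicates 1 to 3 averaged 5.20 ± 0.46 (SD, n = 3), a difference of 1.77 within titles 1 to 8 (limma adjusted p = 0.152). Within titles 38 to 46 the Heph means were 6.41 ± 0.49 (SD, n = 2) in the Flattop and 5.93 ± 0.22 (SD, n = 3) in the Lgr5-high group, a difference of 0.47 (limma adjusted p = 0.741). The arrays of the groups were apart in the first range and overlapped in the second. For Tfrc the difference was -0.12 within titles 1 to 8 (limma adjusted p = 0.860), from means of 9.61 ± 0.23 (SD, n = 2) in the Flattop and 9.73 ± 0.29 (SD, n = 3) in the Lgr5-high group. It was -1.81 within titles 38 to 46 (limma adjusted p = 0.102), from 8.71 ± 0.52 (SD, n = 2) in the Flattop and 10.52 ± 0.14 (SD, n = 3) in the Lgr5-high group. The 3 Lgr5-high arrays with titles 38 to 46 held the highest Tfrc values of all arrays, and the Flattop arrays of that range the lowest. Separation of 2 from 3 arrays was not particular to Heph and Tfrc. The groups were also apart for Cybrd1 and Slc11a2 within titles 1 to 8, and for Fth1 and Slc40a1 within titles 38 to 46. The share of all genes apart within a range is not given here, and nothing is read from the separation. The interaction of group and title range did not pass for either gene, with a value of -1.302 (limma adjusted p = 0.568) for Heph and -1.69 (limma adjusted p = 0.401) for Tfrc, nor for the other 4 (limma adjusted p 0.706 to 0.920). Over all genes 0.00902% passed that test. Its unadjusted limma p was 0.0158 for Heph, 0.00153 for Tfrc and 0.103 to 0.676 for the other 4. The share of all genes with an unadjusted interaction p under 0.05 is not given here. With the title range as a block, the limma adjusted p was 0.159 for Heph and 0.313 for Tfrc.

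**Figure D2:**
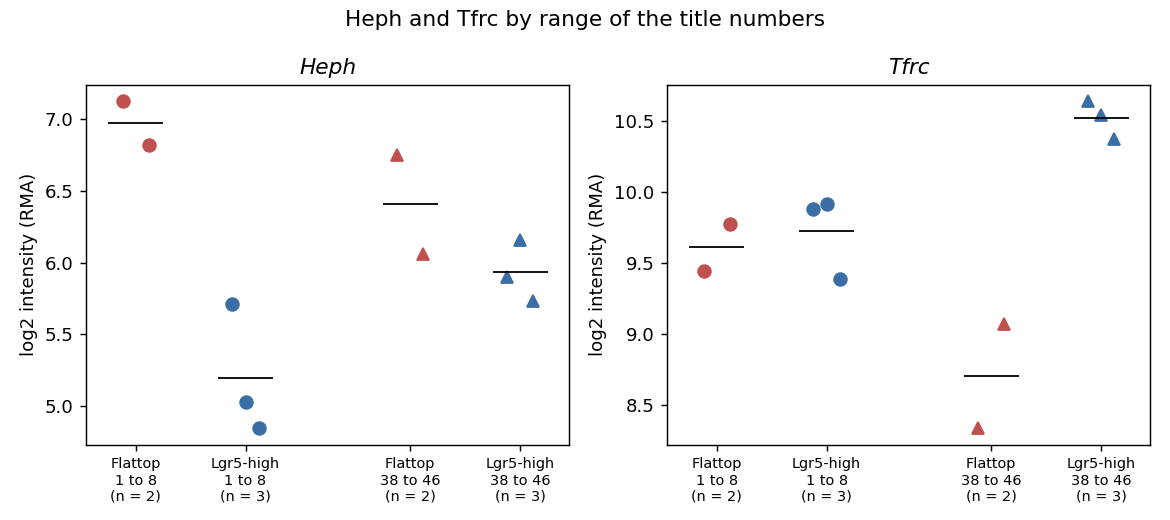
Log2 intensity (RMA) of Heph and Tfrc by title number range and group, Flattop left of Lgr5-high within each range, with horizontal lines at the means. The Heph groups are apart within titles 1 to 8 (6.97 against 5.20) and the Tfrc groups within titles 38 to 46 (8.71 against 10.52). Each of the other iron absorption genes, not shown, was also apart within 1 of the ranges.

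Markers of cell types moved with the groups beside these values. Over all genes, 0.902% were higher in Flattop arrays in limma and the median difference was -0.06. Of 16 enterocyte markers 9 rose in Flattop arrays, with a median difference of 2.58, and the list mean lay between 8.97 and 10.43 in Flattop and between 6.73 and 7.45 in Lgr5-high arrays. Alpi, the intestinal alkaline phosphatase, rose by 4.69 (limma adjusted p = 0.000175). Heph, at 1.12, lay under the list median, near Fabp2 (1.10) and Slc2a2 (1.09), which did not pass either and were picked for that closeness. The groups did not overlap in 13 of the 16 markers, all higher in Flattop arrays and Slc2a2 among them, whereas they overlapped in Heph. Over all genes 2.98% were apart in either direction, 445 of 22180 with Flattop higher. Of 10 lymphocyte markers 9 rose, with list means of 8.40 to 10.48 in Flattop and 4.41 to 4.83 in Lgr5-high arrays. Markers of 3 secretory cell types had list means that did not overlap between the groups. Of 7 Paneth cell markers 5 rose, with a median difference of 3.17 and list means of 11.88 to 12.67 in Flattop and 8.62 to 9.86 in Lgr5-high arrays. Of 7 goblet cell markers 5 rose, with a median difference of 1.51 and list means of 12.12 to 12.61 in Flattop and 9.65 to 11.06 in Lgr5-high arrays. Of 8 enteroendocrine markers 5 rose, with a median difference of 1.42 and list means of 9.06 to 9.73 in Flattop and 7.30 to 7.96 in Lgr5-high arrays. Macrophages, which also express Slc40a1 and Fth1 strongly, had 0 of 12 markers past the threshold in limma. At an unadjusted p under 0.05, 1 was higher (Lyz2, by 1.04) and 2 were lower, against 5.98% and 3.8% of all genes. The macrophage list means were 4.63 to 4.91 in Flattop and 4.49 to 4.88 in Lgr5-high arrays. Of the erythroid markers, a cell type rich in Tfrc, 4 of 10 were measured and 0 passed in limma, also 0 at an unadjusted p under 0.05. The part of enterocyte, secretory cell, lymphocyte, macrophage and erythroid RNA in the differences of the 6 genes was not tested.

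Region, stem cell and proliferation markers stood beside the values too. Of 3 measured distal small intestine genes 2 rose (Fabp6, the ileal bile acid binding protein, and Slc51a, a bile acid exporter subunit), and of 6 proximal genes 1 rose (Rbp2, a retinol binding protein, by 4.15), against 0.902% of all genes higher. The remaining distal gene, Slc10a2, was dim (mean 3.94 over all arrays) and differed by 0.20 (limma adjusted p = 0.773). The other proximal genes did not pass: Fabp1, a fatty acid binding protein, differed by 3.47 (limma adjusted p = 0.0588) and Lct, the lactase gene, by 2.46 (limma adjusted p = 0.121), both without overlap between the groups. Rbp2, Fabp1 and Lct are also on the enterocyte list. The transcription factor genes Gata4, Pdx1 and Onecut2 differed by -0.09, -0.21 and -0.41 (limma adjusted p = 0.881, 0.750 and 0.501). The proximal list had a median difference of 1.19 and means of 7.71 to 9.01 in Flattop and 6.39 to 7.10 in Lgr5-high arrays. Beside Tfrc, at -0.96, all 10 Lgr5 stem cell genes had negative differences with a median of -0.87, and 0 passed in limma (at an unadjusted p under 0.05, 7 were lower, against 3.8% of all genes). All 11 measured proliferation genes had negative differences with a median of -0.54, and 0 passed in limma (at an unadjusted p under 0.05, 3 were lower). The proliferation list means were 7.68 to 8.53 in Flattop and 8.47 to 8.85 in Lgr5-high arrays. Flattop replicate 3 had the lowest proliferation mean as well as the lowest Tfrc. The Lgr5 stem cell list means were 7.48 to 8.83 in Flattop and 8.80 to 9.28 in Lgr5-high arrays. Whether these lists account for Tfrc, or the region lists for the genes of iron absorption, was not tested.

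**Figure D3:**
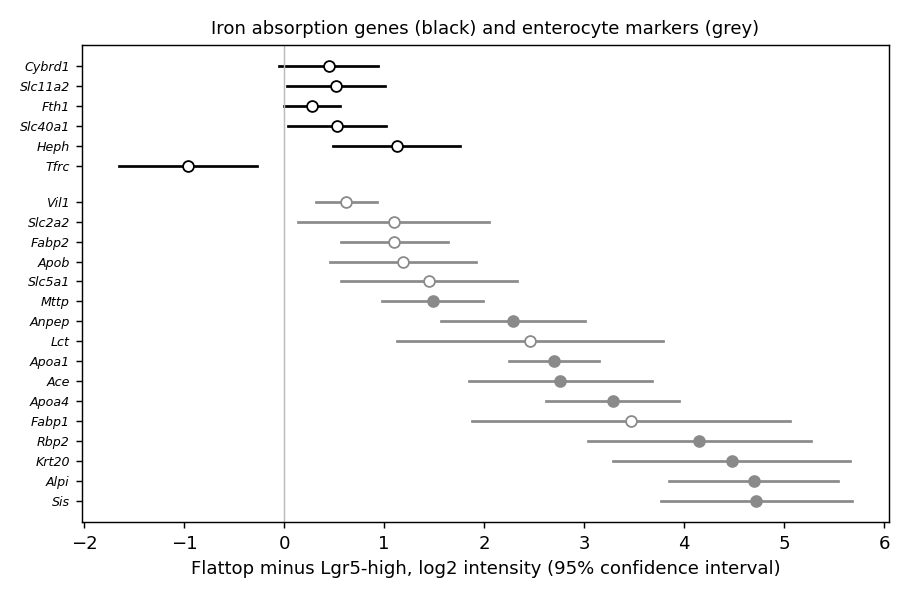
Flattop minus Lgr5-high difference in log2 intensity with its 95% confidence interval from limma, for the 6 iron absorption genes (black) and 16 enterocyte markers (grey, ordered by size); filled points have an adjusted p under 0.05 over all genes. None of the black points is filled and 9 of the grey ones are, up to 4.72 for Sis, the sucrase-isomaltase.

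The wider genes of iron handling showed no call. Of 82 other genes in 12 lists of iron handling and related pathways, 70 were measured and 0 passed limma over all genes in either direction, against 0.902% of all genes higher and 0.0135% lower. With an unadjusted p under 0.05, 4 of the 70 were higher and 0 lower, against 5.98% of all genes higher and 3.8% lower, so the count of 4 is close to the share over all genes. Of the 70 differences 35 were positive and 35 negative, with a median of 0.01, against 8529 positive and 13651 negative over all genes, with a median of -0.06. The 4 were Mt2, a metallothionein (1.57, limma adjusted p = 0.453), Slc25a37, the mitochondrial iron importer mitoferrin (1.37, limma adjusted p = 0.304), Ndrg1, a hypoxia-responsive gene (1.20, limma adjusted p = 0.489), and Iscu, the scaffold of iron-sulphur cluster assembly (0.36, limma adjusted p = 0.478). Ndrg1 passed without Flattop replicate 3 (1.85, limma adjusted p = 0.0289) and with the array least like its group removed from both (1.65, limma adjusted p = 0.0113), and over its 22 alternatives the adjusted p reached 0.959.

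By role, the STEAP family of metal reductases and their relatives had differences (Flattop minus Lgr5-high, log2) of both signs, with Steap1 at 0.34, Steap2 at -0.09, Steap3 at -0.32 and Steap4 at -0.17. The values that follow are the same kind of difference. The multicopper oxidases Cp and Hephl1, relatives of hephaestin, were at -0.29 and -0.21. Among genes of haem handling, Slc46a1, a folate transporter also proposed to carry haem, was at 0.48 and Hmox1, the inducible haem oxygenase, at -0.05. The iron sensors Aco1, Ireb2 and Fbxl5 were at 0.13, -0.33 and -0.13. Hepcidin, the liver hormone that degrades ferroportin, was at 0.02 for Hamp. Among copper genes, Atp7a, the pump that loads hephaestin with copper, was at 0.32. In the hypoxia-inducible factor list, Epas1, the factor that acts on iron absorption in mouse enterocytes, was at 0.04, and the list median was 0.19. The limma adjusted p of these genes lay between 0.569 and 0.982. Steap1, Steap4, Cp, Hephl1, Hmox1 and Hamp had means over all arrays of 4.57, 4.23, 4.34, 4.06, 4.40 and 3.31. These levels lie under the median of all values in the table (4.70), so without detection calls the differences of these dim genes are uncertain.

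**Figure D4:**
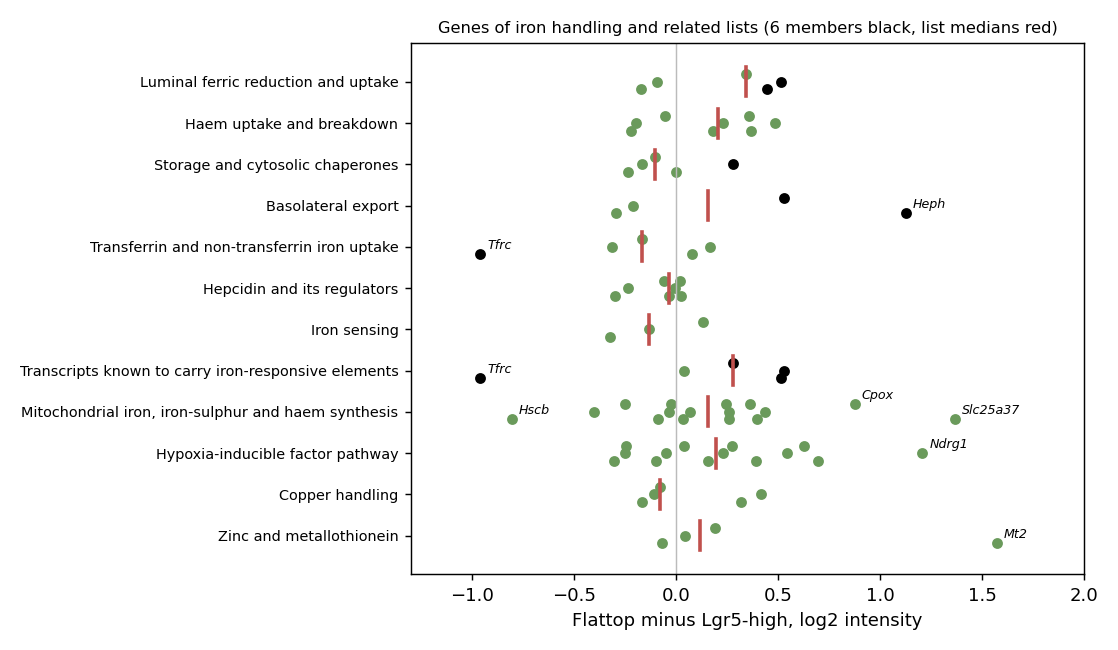
Flattop minus Lgr5-high difference in log2 intensity of every measured gene of the 12 lists; points are genes (the 6 iron absorption genes black, others green, vertical offsets only to separate them) and red bars are list medians. The list medians lie between -0.17 and 0.34, and Mt2 (1.57) and Tfrc (-0.96) mark the ends.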

How the data were processed

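The deposited table gives log2 intensities for each probe set. The authors summarised the arrays with RMA, robust multi-array averaging, using oligo 1.38.0 in R, per the submitters' processing notes. No source used here states the order of steps or any later filter. That the scale is log2 rests on those notes and on values between 2.01 and 14.1, none missing, with array medians of 4.56 to 4.77. Scanner files and detection calls were not used here, and precision is limited by the number of arrays.

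Of 41345 probe sets, 23521 had 1 gene symbol in the platform annotation, 1814 had several and 16010 were not listed. Symbols were checked through Entrez numbers against RefSeq genes (GRCm38.p6). For each of 22180 genes the probe set with the highest mean stood for the gene, and each of the 6 members had 1. Groups came from the labels. Limma 3.58.1 in R 4.3.3 (lmFit, eBayes) gave two-sided tests of Flattop minus Lgr5-high. Their p-values were adjusted over all genes by Benjamini-Hochberg, with calls at 0.05, and the procedure was tested on simulated data. Confidence intervals are limma's, at 95%, not adjusted for multiple tests. Alternatives changed normalisation, filter, variance prior, weights, blocks, arrays and probe set choice. The members, the 12 pathway lists and the 12 marker lists were chosen with earlier results of these data known. Named were all members, pathway genes that passed or had small p-values within their list, and, per member, the 3 genes most correlated with it over the 10 arrays (predicted, clone-named, small RNA, olfactory and receptor segment genes left out). Marker list genes were named where needed beside a result. Genes chosen outside the rule were Cfap126, for its label, and those pathway genes named by role after their values were seen. Shared replicate numbers did not pair the arrays: the correlations of deviations from the group means were 0.30, -0.21, -0.01 and 0.03 for numbers 1 to 4. Plots used matplotlib 3.10.9.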

Additional observations from a re-analysis of the deposited data

Results flagged for a closer look

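Slc11a2 in Flattop replicate 3 stood far from the other Flattop arrays. It read 5.74 there, against 6.75 to 6.93 in Flattop replicates 1, 2 and 4, so that the gap to the nearest array took 0.853 of the whole range of the group, above Dixon's critical ratio of 0.829 for 4 samples. Chance flags about 1 in 20 groups, and 12 groups (6 genes in 2 groups of arrays) were looked at. The same array had the lowest Cybrd1 (5.15), Fth1 (12.16) and Tfrc (8.34) of the Flattop arrays, though none of these stood apart by the same ratio, and its Heph (6.75) and Slc40a1 (4.86) lay inside the group.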

How the results depend on the processing

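The signs of the 6 differences held in all 22 alternatives. The dim gene filter, the variance prior, the title range block and the probe set choices left each estimate as it was, so no sign could change there. In the alternatives 1 call changed: Slc11a2 passed without Flattop replicate 3 (limma adjusted p = 0.0275, against 0.0529 to 0.925 in its other alternatives). Leaving out each array in turn gave differences of 0.28 to 0.62 for Cybrd1, 0.39 to 0.79 for Slc11a2, 0.23 to 0.33 for Fth1, 0.32 to 0.68 for Slc40a1, 0.98 to 1.33 for Heph and -1.17 to -0.69 for Tfrc. The number of the 6 genes that passed was 0 to 1 over these fits. Among the 70 other iron pathway genes it was also 0 to 1, and 1 (Ndrg1) with the array least like its group removed from both groups, chosen after seeing the data. Both single calls arose without Flattop replicate 3, and the cause was not tested. Over all genes 203 passed, against 123 to 215 with 1 array left out (123 without Flattop replicate 2, 132 without Lgr5-high replicate 4), 77 within titles 1 to 8, 85 within titles 38 to 46, 57 with the replicate number as a block and 311 at an adjusted p of 0.1. Under the replicate block, whose numbers do not pair the arrays, Heph was at 1.32 and Tfrc at -0.80, and it changed no call among the 6 genes. Scaling moved the median of all genes by under 0.1. Without detection calls, small differences of dim genes such as Slc40a1 are limited by signal over background, which is unknown here.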

Other observations

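The genes whose profiles over the 10 arrays were most like those of the 6 are given as a description, since the arrays share their groups and the search ran over all named genes. Slc11a2 ran most closely with Abcd4, a lysosomal transporter needed for vitamin B12 handling (Pearson r = 0.981), then with the epithelial keratin Krt19 (0.961) and Lrrc19 (0.938). Heph ran with Timm17b, a part of the mitochondrial import machinery (0.967), with Gfpt1, the first enzyme of hexosamine synthesis (0.949), and with the cell cycle brake Rb1 (0.947). Tfrc ran with Met, the receptor of hepatocyte growth factor (0.938), with the ribosome recycling factor Abce1 (0.929) and with Zfp397 (0.924). Met and Abce1 had differences of -1.57 and -0.97 between Flattop and Lgr5-high arrays and did not pass (limma adjusted p = 0.234 and 0.366). Fth1 ran with Vps33a (0.957), Mydgf (0.944) and Zfp429 (0.940), Cybrd1 with Mfsd6l (0.938), Cd200 (0.916) and Anapc4 (0.911), and Slc40a1 with Klk1b5 (0.902), Ift22 (0.892) and Alkbh2 (0.885). None of the 18 genes passed the limma test between the groups (adjusted p 0.0629 to 0.684). At an unadjusted p under 0.05 there were 12 of the 18, against 9.78% of all genes, and nothing is read from this, since the genes were chosen by their profiles over the same arrays. None is a gene of the iron pathway lists.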
